A study of Mus musculus with 15 samples.

Results

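The mitochondrial ribosomal protein genes were followed through 15 single Tomato+ cells from mouse fat. They were taken as every row of the deposited expression table whose symbol begins with Mrpl or Mrps and a digit, which gave 77 of 8446 rows, 48 of them Mrpl and 29 Mrps. The mice were adult C57BL/6 animals of genotype Prrx1-CreERT;Tomato, and their inguinal adipose tissue was used. In this genotype, a tamoxifen-activated Cre driven by Prrx1, a homeobox gene of limb and skeletal mesenchyme, switches on the Tomato reporter, so Tomato marks cells in which this Cre was active, and their descendants. Tamoxifen had been injected on 3 days, at 2 mg per 30 g of mouse. The fat was digested with collagenase, and Tomato+ cells from the sorter were then collected 1 by 1 under a microscope. There was 1 group, with 1 library per cell and no untreated or Cre-negative cells. No label names an animal, so the 15 cells count as 1 sample, every statement describes these libraries, and no p-value is given.

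The mitochondrial ribosome translates the few messages encoded by mitochondrial DNA, all of which make subunits of the respiratory chain and the ATP synthase. Its RNAs come from mitochondrial DNA, whereas its proteins are encoded in the nucleus, made in the cytosol and imported. Some of these proteins descend from the bacterial ribosome, and others were added in the mitochondrial lineage. The assembled ribosome holds them in fixed proportion. Precursors of fat cells build up their mitochondria as they differentiate.

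Values are log2(FPKM + 1) unless a percentage or count is named, where FPKM is fragments per kilobase of transcript, scaled to sequencing depth. A gene was counted as on in a cell at 1 FPKM or more. The table had been brought to a common distribution in every cell, so 51.7% of all rows were on in each cell by construction, and the members' share can be read against that constant. Between 930 and 1974 rows stood at a cell's lowest value. Read depth is unknown, because the file holds no counts, so a value near 0 cannot be read as absence. The 8 stromal markers (Pdgfra, Col1a1, Col1a2, Col3a1, Dpt, Lum, Cd34, Serping1) had cell means between 4.68 in cell 13 and 10.25 in cell 11, and 7 were on in all cells. The mean of 5 mural markers (Rgs5, Higd1b, Kcnj8, Abcc9, Acta2), which mark pericytes and smooth muscle, stood apart in cell 5 (8.72) and cell 13 (5.83) and did not pass 2.37 in the remaining cells. Of the endothelial, immune and adipocyte markers listed, Esam, Tek, Csf1r, Scd1 and Fasn had a row, and none of them was on in 8 or more cells, although the endothelial gene Esam reached 10.90 in cell 13. The mean of 4 cycling-cell genes with a row reached 11.12 in that cell. The part of these cells in the members' results was not tested beyond leaving them out: without cell 13, 21 members were on in every cell, where 13.9% of all rows were. Without cells 5 and 13 the count was also 21, and 14.2% of all rows were.

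The members were on more often than most genes, and unevenly so. The median member was on in 12 of 15 cells, against 7 for all rows. Of the 77 members, 20 (26.0%) were on in every cell, where 12.1% of all rows were, and 56 (72.7%) were on in 8 or more cells, where 46.8% of all rows were. Only 3 members (3.90%) were on in 3 or fewer cells, against 21.9% of all rows. A further 20 members were on in 12 to 14 cells, 28 in 5 to 11, and 9 in 2 to 4. Every member was on in at least 2 cells. With any value above the cell's lowest counted as on, 36 of the 77 were on in every cell, where 40.2% of all rows were. The median over members of the median over cells was 4.28, against 0.79 for all rows.

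The excess was smaller on a scale without length. FPKM divides by transcript length, while reads from a 3' library kit come from transcript ends and do not grow with length. The members' longest annotated transcripts had a median of 1849 nt against 3262 nt for all rows. When each value was multiplied by the gene's longest transcript relative to the table's median, an alternative chosen after seeing the data, 11 members (14.3%) were on in every cell, against 11.4% of all rows. On that scale the median member level was 3.46 and that of all rows 0.77. On both scales the members' median level was above that of all rows, and the gap in genes on in every cell was narrower on the second.

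**Figure D1:**
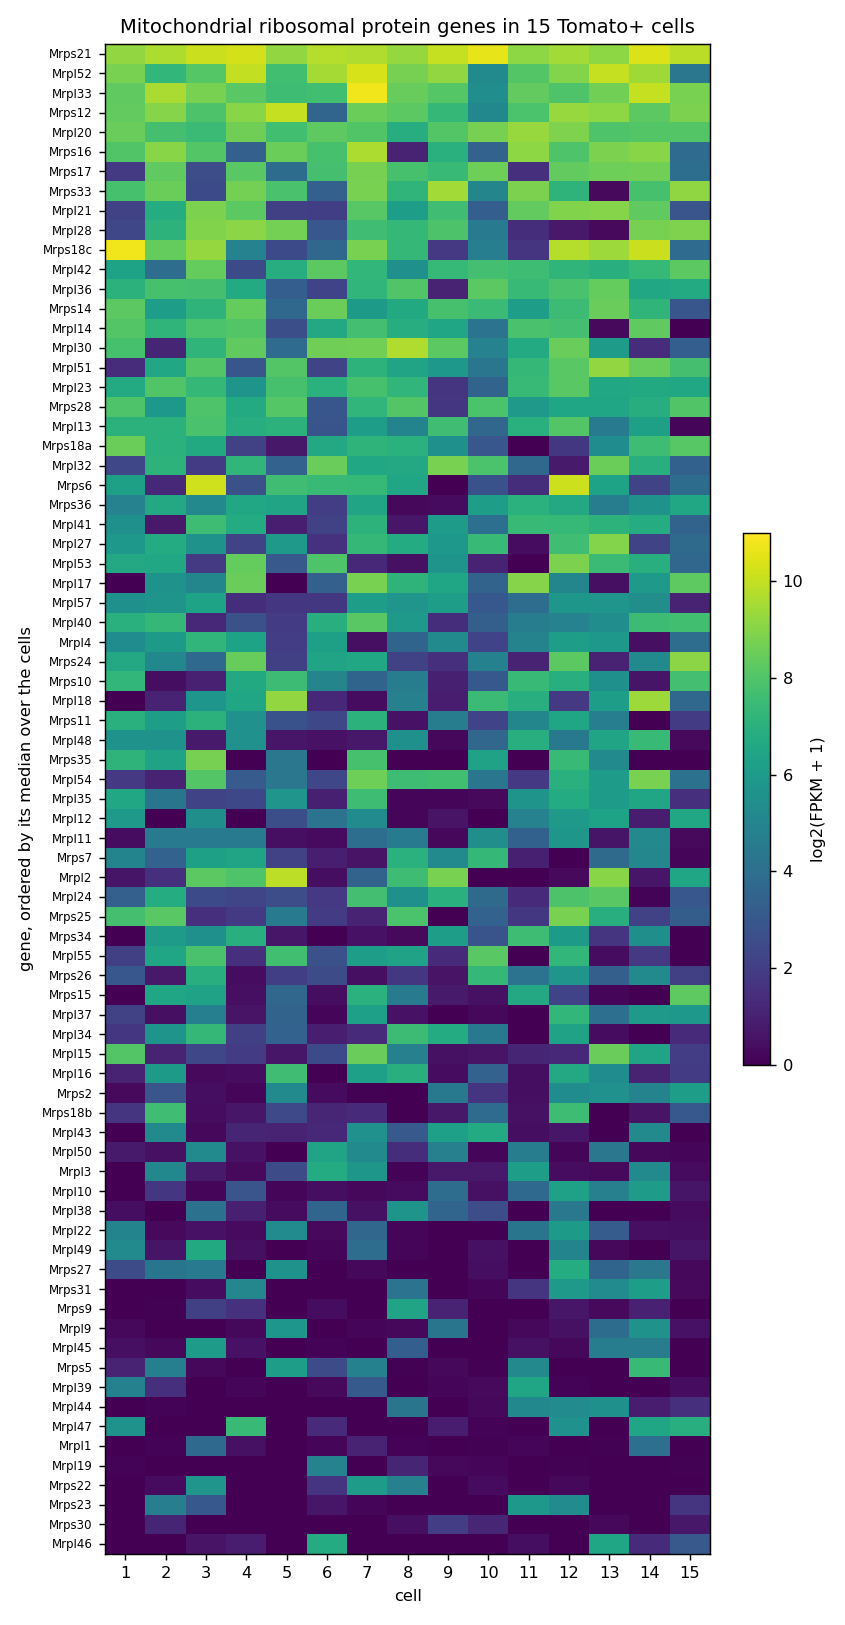
Values of the 77 mitochondrial ribosomal protein genes (rows, ordered by median) in the 15 cells (columns), as log2(FPKM + 1). The rows at the top, led by Mrps21, are filled in every cell, while rows further down switch between values near 0 and values of 4 to 10 from cell to cell.

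The steadiest member was Mrps21, a small-subunit protein with a bacterial counterpart. Mrps21 (chromosome 3) ran from 9.13 to 10.60 with a median of 9.68, the highest level and the narrowest range of the members on in all cells. Mrpl20, a large-subunit protein of bacterial type, ran from 6.85 to 9.31 with a median of 8.06. These genes were high in each of the 15 cells. Mrps12, whose bacterial counterpart lies at the decoding centre of the small subunit, ran from 3.61 in cell 6 to 10.02 in cell 5, with a median of 8.35. Mrpl33 had a median of 8.36 (5.38 to 10.77), and Mrpl52, a large-subunit protein without a bacterial counterpart, 8.77 (4.35 to 10.34). The lowest value of Mrpl33 was in cell 10 and that of Mrpl52 in cell 15. With Mrps14 (2.95 to 8.54) these were the 6 members at 5 FPKM or more in all 15 cells, a share of 7.79% that lay near the 7.03% of all rows.

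Other members with high medians still dropped in some cells. Mrps16 had a median of 8.03, stood at 1.04 in cell 8 and was also low in cells 4 (3.39), 10 (3.48) and 15 (3.82). Mrps17 had a median of 7.81 and was lowest in cell 11, followed by cells 1 (1.87), 3 (2.58), 5 (3.90) and 15 (3.98). Mrps33 (median 7.79) was below 1 FPKM in cell 13 alone, at 0.30. Mrpl21 (median 7.63) ranged from 2.06 to 9.02 and was on in all cells. Mrpl28 (median 7.33) stood at 9.10 in cell 4 and at 0.75 and 0.29 in cells 12 and 13. Cell 13 was thus low for both Mrps33 and Mrpl28, and cell 15 for both Mrps16 and Mrps17.

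At the low end, Mrps30, Mrpl19 and Mrpl1 were on in 3 or fewer cells. Mrps30 belongs to the large subunit in spite of its name. It was on in 3 cells, a share whose exact 95% binomial interval runs from 4.33% to 48.1%. It never reached 5 FPKM, and had its highest value of 1.99 in cell 9. Mrpl19 was on in cells 6 (4.89) and 8 (1.14). Mrpl1 was on in cells 14 (4.01), 3 (3.75) and 7 (1.08). Their longest annotated transcripts measure 3803, 5000 and 3556 nt. The interval covers counting error only.

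**Figure D2:**
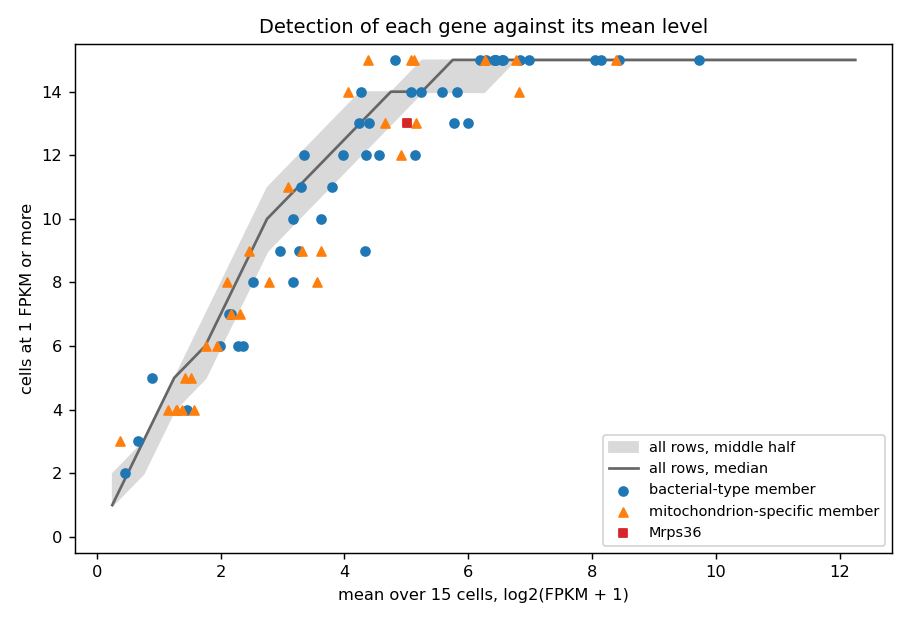
Number of cells at 1 FPKM or more (y axis) against the mean over 15 cells in log2(FPKM + 1) (x axis) for each member, with the median of all rows as a line and their interquartile range as a band. Most members with means between 2 and 6 lie on or below the line.

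On-off variation was common. Over all members it lay near the table's rate, and below a mean of 4 it lay above that of rows at like levels. A gene was called on-off when it was under 1 FPKM in 3 or more cells and at 5 FPKM or more in 3 or more others. That held for 39 members (50.6%) and for 52.4% of all rows, so the members' share lay near the background. Of the 1155 member values, 342 (29.6%) were under 1 FPKM, 681 (59.0%) at 5 FPKM or more, and 132 (11.4%) between, against 48.3%, 40.5% and 11.3% of all values. Intermediate values were thus as rare among the members as in the table. Within bands of mean level the members had a higher median SD than other rows, and below a mean of 4 a larger share of them was on-off. At means under 2 the on-off shares were 73.3% of 15 members and 51.6% of 4394 other rows. Between 4 and 6 they lay near each other, with 5 of 22 members (22.7%) and 17.6% of other rows. Between 6 and 8 they were 0% and 0.58%. Between means of 2 and 4, the median SD over cells was 2.70 for 23 members and 2.38 for 2218 other rows, and all 23 members were on-off against 87.7% of the others. Between 4 and 6 it was 2.73 for 22 members and 2.36 for 961 others, and between 6 and 8 it was 2.55 for 12 members and 1.78 for 520 others. The bands are on the FPKM scale, and the members' transcripts are shorter than those of most rows. The part of length in these differences was not tested.

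The widest on-off gene was Mrpl2, whose bacterial counterpart lies near the peptidyl transferase centre. Mrpl2 was on in 9 cells, from 1.55 in cell 2 to 9.91 in cell 5, and stood at 0.00 in cells 10 and 11, with an interquartile range of 7.59. Mrps35, a small-subunit protein without a bacterial counterpart, was on in 8 cells, where its median was 6.76, and had no value between 1 and 5 FPKM. In cells 4, 6, 8, 9, 11, 14 and 15 it was at most 0.03. Mrpl12, the stalk protein that contacts translation factors, was on in 9 cells with a median of 5.48 there, and likewise had no value between 1 and 5 FPKM. The other wide on-off genes were Mrps15 (on in 8 cells, highest 8.26), Mrpl16 (10 cells, 7.62), Mrps34 (9 cells, 7.57), Mrpl47 (6 cells, 7.42), Mrpl18 (12 cells, 9.39), Mrpl55 (12 cells, 8.18) and Mrps10 (12 cells, 7.70). Mrpl2 and Mrpl16 were highest in cell 5, and Mrps15, Mrpl12 and Mrps10 in cell 15. No cell was off for all 10 genes.

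By place in the ribosome, the members of bacterial type had a higher median of cells on than those of the mitochondrial lineage, most plainly in the small subunit. The 50 large-subunit and 26 small-subunit members differed little as groups, with median levels of 4.23 and 4.07 and a median of 12 and 11.5 cells on. Within the small subunit, the 16 members of bacterial type had a median level of 5.70 and a median of 14.5 cells on, and 8 of them, among them Mrps21, Mrps12 and Mrps16, were on in all cells. The 10 other small-subunit members had a median level of 1.84 and a median of 8 cells on, and none was on in all cells. Mrps18b, a paralogue of the bacterial-type Mrps18c, was counted among these. Mrps33 (14 cells) and Mrps25 (14 cells) came nearest, while Mrps22 was on in 4 cells and Mrps23 in 5. In the large subunit, the 30 members of bacterial type had a median level of 4.23 with 12 cells on, and the 20 others 3.23 with 9 cells on. On in every cell were 6 of the 30 and 6 of the 20, where 12.1% of all rows were. By that count the larger share in the large subunit was that of the 20 others.

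The order of the small-subunit sets was the same on the scale without length. The longest transcripts had a median of 1538.5 nt for the bacterial-type and 2254.5 nt for the other small-subunit members. With values multiplied by length, 4 of the 16 and 0 of the 10 were on in all cells, against 11.4% of all rows. Against that share, 0 of 10 genes says little. In the large subunit 4 of the 30 bacterial-type members and 3 of the 20 others were on in all cells. By that count the larger share there was again that of the 20 others, although their median level and median of cells on were lower. These counts describe genes, which are not replicates, and the difference between the sets was not tested.

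The Mrps18 paralogues differed. Vertebrates have 3 such genes, of which Mrps18c takes the place of the bacterial protein, Mrps18b sits elsewhere in the small subunit and Mrps18a belongs to the large subunit. Mrps18c was on in all 15 cells, from 1.67 to 10.75 with a median of 7.31. Mrps18a was on in 13 cells with a median of 6.63 and stood at 0.00 in cell 11 and 0.71 in cell 5. Mrps18b was on in 8 cells, with 7.63 in cell 2, 7.58 in cell 12, and at most 3.85 elsewhere. Mrps36, now counted as a part of the oxoglutarate dehydrogenase complex and not of the ribosome, was on in 13 cells with a median of 6.11 and was below 1 FPKM in cells 8 and 9.

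Subunits that carry other symbols behaved as variably. Chchd1 was on in all 15 cells (median 8.42), Aurkaip1 in 14 (6.59), Dap3 in 13 (3.25) and Ptcd3 in 6 (0.33), all of the small subunit. Of the large subunit, Ict1, a peptide-release protein built into the ribosome, was on in 13 cells (2.04), and Gadd45gip1 in 10 (2.14).

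Detection was also set side by side for members and the genes that sit head to head with them. In 19 cases a protein-coding gene with a row in the table starts on the opposite strand within 1000 bases of a member's annotated start (GENCODE M21, GRCm38). The median difference in cells on between the partners was 7, and in 9 cases it was 8 or more. No value for pairs of genes elsewhere stands beside these counts, so they describe the 19 cases only. Mrps12 was on in 15 cells and Sars2, the mitochondrial seryl-tRNA synthetase gene whose start lies 172 bases away, in cell 12 alone (4.74). Fau, which encodes a cytosolic ribosomal protein fused to a ubiquitin-like protein, was on in 15 cells and Mrpl49 in 4, with starts 59 bases apart. Mrpl36 and Ndufs6, a complex I subunit, were both on in all cells, with medians of 7.24 and 8.09 and starts 29 bases apart. Of 14 such pairs with both genes on in 3 or more cells, 8 had a Spearman correlation above 0 over the 15 cells. Their median was 0.05. Over all pairs of genes on in 3 or more cells, 50.2% were above 0 and the median was 0.00, so the neighbours lay near that background.

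One of these cases joined 2 members, Mrps11 and Mrpl46 on chromosome 7. Mrps11, of the small subunit, was on in 13 cells, from 1.93 to 7.07 in these, and was below 1 FPKM in cells 8 (0.53) and 14 (0.00). Mrpl46, of the large subunit, was on in 4 cells, with 6.76 and 6.46 in cells 6 and 13 and 3.06 and 1.36 in cells 15 and 14. Both were on in 3 cells, and 11 cells had only 1 of the pair. By GENCODE M21 the annotated genes overlap on opposite strands, and no label states whether counting used strand. RefSeq, used for the promoter windows below, places the start of Mrpl46 elsewhere: its GENCODE start, at 78783531, lies outside its window. The overlap thus depends on the annotation. In all, 16 members overlap another gene with a row, so their values may hold reads of the partner.

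The promoter windows of 4 members are shown because they carry the steadiest gene and the parted neighbours. Each runs 5′ to 3′ on the gene's own strand, from 250 bases before to 50 after the RefSeq start (GRCm38.p6). Capitals mark matches on either strand to an NRF1-type core (GCGCA, any base, GCGC, named for the nuclear respiratory factor), CCGGAAG (the core bound by ETS factors such as GABPA) or AANATGGCG (the core bound by YY1), 3 factors known for their sites in nuclear genes of mitochondria. Mrps21 lies at chr3:95871465-95871764 on the minus strand, Mrps12 at chr7:28741772-28742071 on the minus strand, Mrps11 at chr7:78782881-78783180 on the plus strand and Mrpl46 at chr7:78783040-78783339 on the minus strand.
Mrps21: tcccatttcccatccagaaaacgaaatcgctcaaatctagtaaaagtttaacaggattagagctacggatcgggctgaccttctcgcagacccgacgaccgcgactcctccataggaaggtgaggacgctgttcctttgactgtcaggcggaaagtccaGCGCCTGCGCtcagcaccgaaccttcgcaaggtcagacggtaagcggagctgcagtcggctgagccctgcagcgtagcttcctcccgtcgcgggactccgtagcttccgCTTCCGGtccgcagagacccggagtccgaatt
Mrps12: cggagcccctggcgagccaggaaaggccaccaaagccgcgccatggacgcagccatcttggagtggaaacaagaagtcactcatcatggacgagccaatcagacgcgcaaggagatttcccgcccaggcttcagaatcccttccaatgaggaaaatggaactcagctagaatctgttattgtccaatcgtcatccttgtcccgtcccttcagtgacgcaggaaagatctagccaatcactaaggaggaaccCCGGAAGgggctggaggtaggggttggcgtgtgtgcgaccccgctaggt
Mrps11: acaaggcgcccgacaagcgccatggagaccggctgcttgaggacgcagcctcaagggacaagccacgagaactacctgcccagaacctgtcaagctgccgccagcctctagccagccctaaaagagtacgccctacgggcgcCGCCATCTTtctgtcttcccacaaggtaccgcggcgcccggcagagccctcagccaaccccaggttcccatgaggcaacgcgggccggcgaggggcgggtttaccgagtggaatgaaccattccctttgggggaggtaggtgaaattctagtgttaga
Mrpl46: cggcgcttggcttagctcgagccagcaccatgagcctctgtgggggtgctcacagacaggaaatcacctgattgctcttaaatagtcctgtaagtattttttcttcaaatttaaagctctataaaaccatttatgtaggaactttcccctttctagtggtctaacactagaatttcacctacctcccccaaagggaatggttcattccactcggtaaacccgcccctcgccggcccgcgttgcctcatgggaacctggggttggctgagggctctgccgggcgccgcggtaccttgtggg
The Mrps21 window holds an NRF1-type match (GCGCCTGCGC) and an ETS-type match (CTTCCGG), that of Mrps12 an ETS-type match (CCGGAAG) and that of Mrps11 a YY1-type match (CGCCATCTT). The Mrpl46 window holds none of the 3 and shares 141 bases with that of Mrps11, read on the other strand. The YY1-type match of the Mrps11 window lies outside the shared bases, just past the 3′ end of the Mrpl46 window. Its absence from the Mrpl46 window thus depends on where that window was cut, and no difference between these neighbours is read from it.

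Over the 68 members with a promoter in the reference, 41 (60.3%) held at least 1 of the 3 motifs, against 36.2% of the table's 6566 genes with a promoter. The ETS-type motif was in 25 (36.8%), against 22.2% of the table's genes and 9.93% of all 27025 genes. The NRF1-type motif was in 13 (19.1%), against 12.7% and 5.19%, and the YY1-type motif in 10 (14.7%), against 6.88% and 2.76%. The CCAAT box was in 27 (39.7%), against 43.0% of the table's genes and 41.1% of all, and TATAAA in 5 (7.35%), against 8.96% and 15.7%. Among members on in all cells, 9 of 18 held the ETS-type motif, and among those on in under 8 cells 5 of 19. The NRF1-type motif was in 3 of 18 and 5 of 19, and the YY1-type motif in 3 of 18 and 2 of 19. A match is a description of these letters and was not tied to any measured binding.

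The number of members on in a cell ran from 46 to 60, with a median of 54. Cells 3 and 12 had 60 on, and cell 9 had 46 (59.7%), still above the 51.7% of all rows. At 5 FPKM or more, cell 12 had 56 and cell 6 had 33. Cell 6 was also the cell with the most values between 1 and 5 FPKM, 19 of the 77 (24.7%, against 11.3% of all rows), and cell 13 had the fewest, 2. The mean over members was highest in cell 12 (5.32), followed by cells 7 (4.85) and 3 (4.72), and lowest in cells 6 (3.21), 10 (3.38) and 15 (3.46). Cell 12 held the highest value of 9 of the 77 members, and every cell held the highest value of at least 1. Stromal markers in cell 12 had a mean of 6.74, below all cells except 5 and 13.

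**Figure D3:**
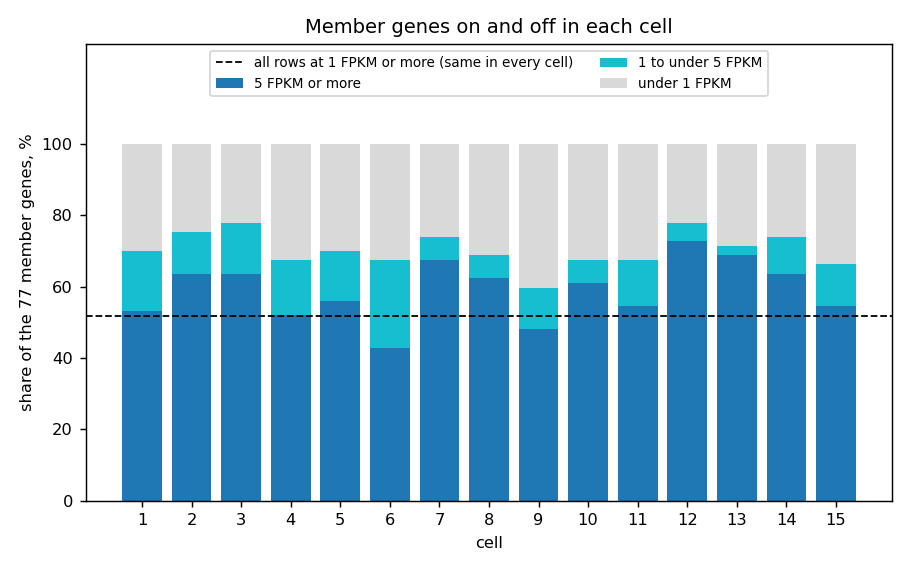
Share of the 77 members at 5 FPKM or more, at 1 to under 5 FPKM and under 1 FPKM in each of the 15 cells, with the share of all rows at 1 FPKM or more (51.7%) as a dashed line. The share on lies above the line in every cell, from 59.7% in cell 9 to 77.9% in cells 3 and 12.

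Pair by pair, the members hardly moved together. Over the 2850 pairs of the 76 members on in 3 or more cells, the mean Spearman correlation across the 15 cells was 0.041 and the median 0.044, against 0.002 and 0.00 over all pairs of 7425 genes. Without cell 12 the members' mean was 0.027. Of the member pairs 56.5% were above 0, against 50.2% of all pairs, and 4.56% reached 0.5, against 3.28%. Correlations of this size in single cells are weak and are given as a description. The 83 cytosolic ribosomal protein genes, which build the ribosome of the cytosol, had a mean of 0.308 over their pairs in the same cells, and 77 nuclear genes of oxidative phosphorylation 0.0999. Pairs within the large subunit (0.042), within the small subunit (0.028) and across the subunits (0.042) had similar means.

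**Figure D4:**
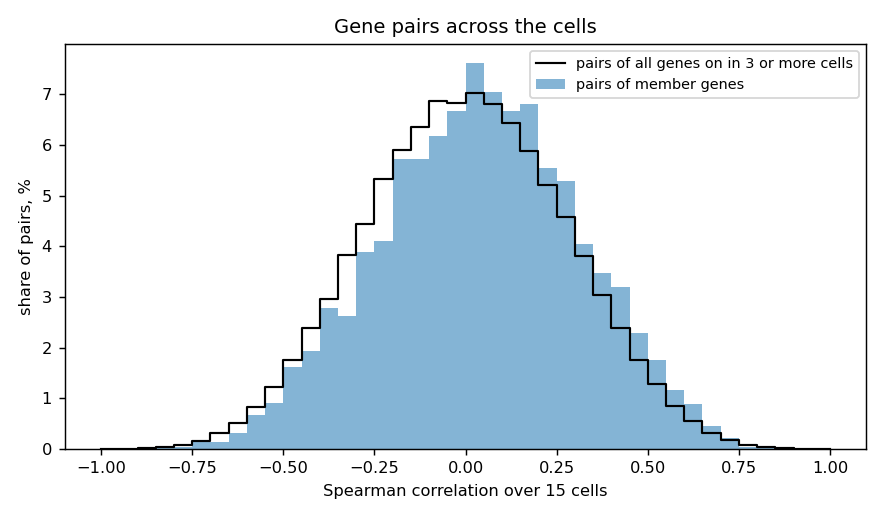
Spearman correlations over 15 cells for pairs of member genes (bars) and for pairs of all genes on in 3 or more cells (line), as the share of pairs in steps of 0.05. The bars follow the line closely and lie slightly to its right, with means of 0.041 and 0.002.

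Single pairs reached high values in both directions. Mrpl24 and Mrpl27, both of bacterial type and on in 14 cells each, had the highest correlation (0.89). Mrpl22 and Mrpl35 followed (0.84), with both on in 6 cells, and then Mrpl21 and Mrpl41 (0.80). Mrps14 and Mrps15 had the lowest (−0.82), followed by Mrpl12 and Mrpl43 (−0.78) and by Mrpl9 and Mrps22 (−0.74). Mrpl9 and Mrps22 were each on in only 4 cells, and never in the same cell. Their correlation thus rests mostly on values near 0, and nothing is read from it. Mrpl12 and Mrpl43 were both on in 3 cells, and 12 cells had only 1 of them on. Values near 0 thus also enter the ranks of this pair and of Mrpl22 with Mrpl35. These pairs are the extremes of 2850, and among all pairs of genes values up to 1.00 occurred. Against the mean of the other members, Mrps18c (0.75), Mrpl37 (0.70) and Mrpl21 (0.69) had the highest correlations. The lowest belonged to Mrpl19 (−0.58), Mrpl32 (−0.45) and Mrps30 (−0.36), but Mrpl19 was on in 2 cells and Mrps30 in 3, so their ranks rest on values near 0 and nothing is read from them.

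As means over many genes, the members of a cell followed its respiratory chain genes, though not these alone, and did not follow its cytosolic ribosome. The mean of the 932 other genes with the shortest transcripts followed the members too, at a Spearman correlation of 0.78. The cell means of the large-subunit and small-subunit members had a Spearman correlation of 0.67 over the 15 cells. The member mean correlated at 0.83 with the mean of 37 genes taken as complex I by their Nduf symbol alone, Ndufa4 and Ndufa4l2 included. Their cell means ran from 6.39 in cell 6 to 8.17 in cell 12. With each cell left out in turn the correlation ran from 0.79 to 0.93. For complex III (9 genes) it was 0.75, for the ATP synthase (16 genes) 0.65, for complex IV (12 genes) 0.41 and for complex II (4 genes) 0.28. Across all 78 of these genes it was 0.71. For the cytosolic ribosomal protein genes it was −0.01, and the cell with the most members at 5 FPKM, cell 12, was also highest for these (9.32), whereas cells 10 and 6 came next for these (8.75 in cell 6) and had the lowest member means. Without cells 7 and 12, the farthest from the median member mean, the complex I value was 0.80, that of all 78 genes 0.63 and the cytosolic value −0.41. Complex III then stood at 0.62, the ATP synthase at 0.53, complex IV at 0.28 and complex II at 0.07. The points share libraries, normalization and an unknown number of mice.

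**Figure D5:**
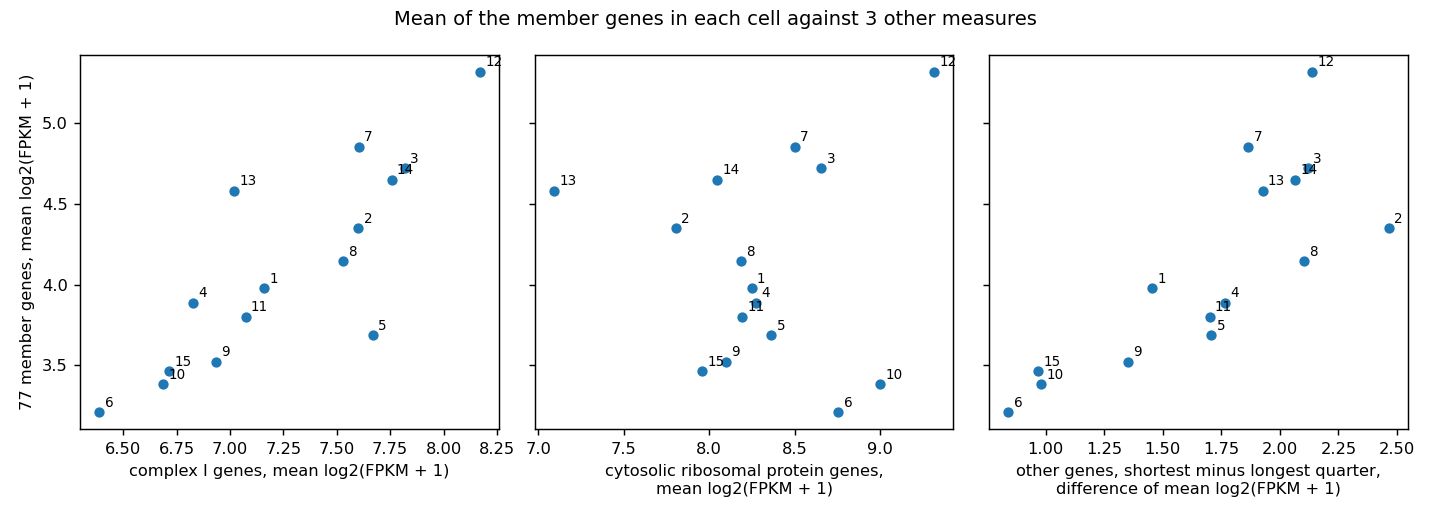
Mean of the 77 members in each numbered cell (y axis, log2(FPKM + 1)) against the mean of complex I genes, the mean of cytosolic ribosomal protein genes, and the difference between the means of the shortest and longest other genes. The left and right panels rise together with the members (0.83 and 0.86), and the middle panel does not (−0.01).

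The balance between short and long transcripts moved with the same cells. Among 3725 other genes on in 8 or more cells, the mean over the 932 with the shortest transcripts (at most 1826 nt) ran from 4.75 in cell 6 to 5.41 in cell 2, and that over the 932 longest (at least 4281 nt) from 2.94 in cell 2 to 3.91 in cell 6. The difference between these means, a measure chosen after seeing the data, ranged from 0.84 to 2.46, was lowest in cells 6, 15 and 10, and correlated at 0.86 with the member mean and at 0.74 with the mean of the respiratory chain genes. After each cell's mean over the short genes was subtracted from both sides, the correlation of members and complex I was 0.59, and with all respiratory chain genes 0.48. The mean of the 13 housekeeping genes also went with the members (0.70), while the number of rows at the lowest value did not go closely with them (−0.26). The subtraction takes the same values from both sides, which by itself can make them go together, and it leaves the long genes as they were. The values after it are thus not a relation free of the balance. The part of the balance in the relation was not tested beyond this subtraction.

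Gene by gene the relation was broad and shallow. Of the 77 respiratory chain genes on in 3 or more cells, 63 (81.8%) had a correlation above 0 with the member mean, against 49.0% of 7349 other rows, with a median of 0.26 against −0.01. These genes are short, with a median longest transcript of 1087.5 nt, and of the 932 short other genes 60.0% were above 0, with a median of 0.06. Ndufa4, a small subunit of the chain, stood at 0.59, and Uqcrq and Uqcrb of complex III at 0.61 and 0.52. Of the 83 cytosolic ribosomal protein genes, 36 (43.4%) were above 0.

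Translation factors and tRNA synthetases of mitochondria were on in fewer cells than the ribosomal proteins and than the median row, while assembly factors lay near the table's background. The share of all rows on in 8 or more cells, 46.8%, is the level to read these counts against. Of 13 translation factors listed, 8 had a row, with a median of 5 cells on and 1 on in 8 or more cells. That gene was Tsfm, the elongation factor's exchange factor, on in 11 cells (median 2.86), while Tufm, the elongation factor itself, was on in 5 (median 0.32, highest 6.11). Of 17 mitochondrial tRNA synthetases, 9 had a row, with a median of 3 cells on, and Lars2 was the 1 on in 8 or more (10 cells, median 1.85). Of 21 assembly factors, 14 had a row and 6 (42.9%) were on in 8 or more cells, with a median of 6 cells on, led by Mterf3 (median 3.24), Dhx30 (2.48) and Malsu1 (2.20). Median longest transcripts of these lists were 2682, 3336 and 2736 nt, longer than the members' 1849 nt.

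Genes for mitochondrial DNA expression were also on in few cells. Of 19 listed, 14 had a row and 3 (21.4%) were on in 8 or more cells: Slirp, an RNA-binding protein (median 7.05), Hsd17b10, a part of mitochondrial RNase P (6.39), and Ssbp1, the single-strand DNA binding protein (3.68). Import genes were wider, with 16 of 19 (84.2%) on in 8 or more cells and 8 in all, led by Timm8b (8.70), Tomm5 (8.16) and Tomm22 (7.48). Of the chaperones and proteases, 7 of 9 (77.8%) were on in 8 or more cells, with Phb2 (7.12) and the chaperonin Hspe1 (7.03) highest. Correlations of these list means with the member mean were 0.34 for both DNA expression and import, 0.31 for chaperones and proteases, −0.11 for assembly, −0.20 for tRNA synthetases and −0.49 for translation factors. The sign turned by Pearson correlation for assembly (0.27) and tRNA synthetases (0.11), and without cells 7 and 12 DNA expression stood at 0.12 and chaperones and proteases at 0.15.

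Regulators of mitochondrial gene expression lay near the table's background in level, and their mean ran opposite to that of the members. Of 9 listed, 6 had a row, with a median level of 0.75 against 0.79 for all rows. Of these 6, 3 (50%) were on in 8 or more cells, where 46.8% of all rows were. Myc was on in all 15 cells, from 1.12 to 10.04 with a median of 4.69. Yy1 was on in 8 cells (median 1.02), Pprc1 in 8 (1.01), Gabpa in 7 (0.48), Nrf1 in 6 (0.26) and Gabpb1 in 5 (0.13). The mean of the 6 genes ran from 0.68 in cell 12 to 4.44 in cell 9, and correlated at −0.70 with the member mean. Single values were −0.57 for Myc, −0.55 for Gabpa and −0.51 for Pprc1, but 0.07 for Nrf1 and 0.28 for Gabpb1. These transcripts are long, with a median of 4570 nt, and the mean of the 932 longest other genes correlated at −0.82 with the member mean.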

How the data were processed

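Each library held the RNA of 1 cell. Per the labels' protocols, cDNA came from the SMART-Seq v4 3' DE kit, with Nextera XT libraries. TopHat2, Cufflinks and GRCm38 are named by the submitters' processing notes, and no version or setting is given there. The deposited table, named FPKM by the authors, holds log2 values up to 13.69. Base and pseudocount (1) were inferred from the values, as was quantile normalization: sorted columns differed by at most 0.0354 above 0.2. Columns were tied to cells by the number in the sample title, and 0 value columns were left unused.

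Detection, levels and rank correlations were computed with Python 3.11.15, numpy 2.4.6 and scipy 1.17.1 and tested on simulated data. Positions and longest transcripts came from GENCODE M21 (GRCm38), which matched 8438 rows and all 77 members, and promoters from RefSeq. The interval on a share of cells is Clopper-Pearson. Alternatives changed thresholds, length scaling, pseudocount, correlation measure and the cells used.

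Members and lists were chosen with earlier results of these data known. Members were named by rule: the 10 highest medians, those on in 3 or fewer cells, the 10 on-off members with the largest interquartile range, the 3 pairs and 3 single members at each end of correlation, the Mrps18 paralogues, Mrps30 and Mrps36, and the 3 highest genes of related lists. The other named genes, such as those starting near a member, Mrps14, Mrps22, Mrps23, Mrps25, Tufm, Esam, Ndufa4, Uqcrq, Uqcrb, Gabpa, Gabpb1 and Nrf1, were named after their values were seen.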

Additional observations from a re-analysis of the deposited data

How the results depend on the processing

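No paired analysis was possible because there is a single group of cells. At 5 FPKM, 6 members were on in every cell, where 7.03% of all rows were, and 47 members were on in the median cell. Above each cell's lowest value, 36 were on in every cell, where 40.2% of all rows were. With values multiplied by longest transcript, 11 were on in every cell, against 11.4% of all rows, and the median level was 3.46. Mean covariation ranged from 0.0270 (without cell 12) to 0.0458 with each cell left out in turn. After subtraction of the short-gene mean, the member mean correlated at 0.475 with all oxidative phosphorylation genes and at 0.586 with complex I. Without the 2 cells farthest from the median, cells 7 and 12, it correlated at -0.41 with cytosolic ribosomal protein genes and at 0.115 with mitochondrial DNA expression. By Pearson correlation it was 0.27 for assembly factors and 0.115 for tRNA synthetases. For these the cause was not tested beyond the construction of each setting. The other 80 values kept within the tolerance set for them, 0.2 for a correlation between list means. The tolerance for mean covariation was narrower, as 0.0270 against 0.0410 with all cells counted as moved. Depth is unknown, so values near 0 limit every count of cells on.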
